A study of Mus musculus with 6 samples.

Results

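The genes described are 10 of the insulin and insulin-like growth factor (IGF) system, among the 54532 genes of the count table. They are the receptors *Insr*, *Igf1r* and *Igf2r*, the receptor substrates *Irs1* and *Irs2*, the ligand *Igf1*, and the secreted binding proteins *Igfbp2*, *Igfbp3*, *Igfbp4* and *Igfbp5*. The list was chosen by gene name with earlier values of these data known, so the levels and differences of the 10 genes are given as a description. Where a gene is said to be called, that is its place in the fit across all genes and no independent evidence. Each was found by its Ensembl identifier, and all 10 were present and passed the filter on low counts.

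The 6 libraries held poly-A RNA of cardiomyocyte (CM) nuclei, pulled down with an antibody to PCM-1, from wildtype ICR mice. Every mouse received an AAV9 virus under the skin at 6 d of age, with 1e+11 viral genomes, and hearts were taken at 9 d. The cassette was driven by the cardiac troponin T (cTnT) regulatory element, which limits expression to CMs, and carried GFP, YAP6SA or YAP5SA. YAP5SA is YAP with the LATS1/2 phosphorylation serines replaced by alanine, which keeps the Hippo kinases from restraining it. YAP6SA carries the same replacements and a further one that blocks binding to the TEAD transcription factors. GFP, the control, thus shared the virus, the promoter, the strain and the age. Each group had 2 libraries, 1 in batch 1 and 1 in batch 2, and pairs of values below are given in that order. The labels do not state which heart gave which library, so the spread within a group is the spread between 2 libraries. All values are RNA of pulled-down nuclei, enriched for CMs, taken 3 d after the virus was given. There was no measure of protein or of phosphorylation.

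Insulin and IGF1 bind the tyrosine kinase receptors INSR and IGF1R, which phosphorylate the substrates IRS1 and IRS2, and these recruit PI3-kinase and so activate AKT. AKT drives glucose uptake, glycogen and protein synthesis, and holds the FOXO factors outside the nucleus, and the pathway promotes CM growth in the young heart. IGF2R has no kinase activity, since it clears IGF2 from the surface and sorts lysosomal enzymes, and the IGF binding proteins hold IGFs in the extracellular space, where proteases release them.

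Gene counts ran from 14552847 to 19615627 per library, and a gene at 0 counts could have up to 3, which equals 0.153 to 0.199 CPM (counts scaled to a fixed library size, with TMM factors). That limit covers counting error only. The CM label held for its defining markers, since none of the 9 markers was at 0 and their summed level ran from 32250 to 75510 CPM. That sum was 45100 and 32250 CPM in YAP5SA, below the other 4 libraries, and *Pln* and *Ryr2* were called lower in YAP5SA than in both other groups. These are 2 of 9 markers, beside 22.0% of all genes called against GFP and 14.7% against YAP6SA. *Ryr2* was close to the threshold (edgeR FDR 0.0455 against GFP and 0.0496 against YAP6SA). *Pcm1*, whose protein was used for the pull-down, had positive log2 fold changes of 0.24 and 0.32 and was not called. RNA of other heart cells was present at lower levels. The summed level over the libraries was 730.5 to 1440 CPM for 8 fibroblast markers, 488 to 744 CPM for 8 endothelial markers, 182 to 258 CPM for 6 mural markers and 59.8 to 134 CPM for 8 macrophage markers, and no marker was at 0. In such bulk samples, fewer cells of a type cannot be told apart from less RNA per cell.

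Against the control, YAP5SA libraries had less *Insr*, more *Igf1r*, *Irs2* and *Igfbp5*, and counts of *Igfbp2* that were all but absent elsewhere. YAP6SA libraries shared the higher *Irs2* and stood close to GFP for all 3 receptors. In the fit across all genes (edgeR quasi-likelihood test with batch as a term, FDR under 0.05), YAP5SA and GFP differed in 22.0% of the 13323 genes tested, with 12.8% higher and 9.18% lower in YAP5SA. Of the 10 genes, 4 were called higher (*Igf1r*, *Irs2*, *Igfbp2*, *Igfbp5*) and 1 lower (*Insr*), with a median log2 fold change of 0.57 beside -0.003 over all genes. *Igfbp2* passed the filter on low counts through YAP5SA only. It could therefore enter the YAP5SA comparisons only as a gene higher there, and its calls are a description. Between YAP5SA and YAP6SA, 14.7% of genes were called, 1199 higher and 757 lower in YAP5SA, and 5 of the 10 were among them (*Igf1*, *Igf1r*, *Igfbp2* and *Igfbp5* higher, *Insr* lower). The median there was 0.04 over the list and -0.01 over all genes. Without the batch term 2 of the 10 were called, and the number over all genes fell as well, from 1956 to 1152. Fewer of the 10 were called without either YAP6SA library. Without that of batch 2, fewer were called over all genes too. Between YAP6SA and GFP, 0.0450% of genes were called, which is 6 genes, and *Irs2* was the single one of the 10. The medians were 0.20 for the list and 0.002 over all genes. Since the list was drawn up with these values known, the counts are not read against the background. YAP5SA and YAP6SA were compared with the same GFP libraries.

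**Figure D1:**
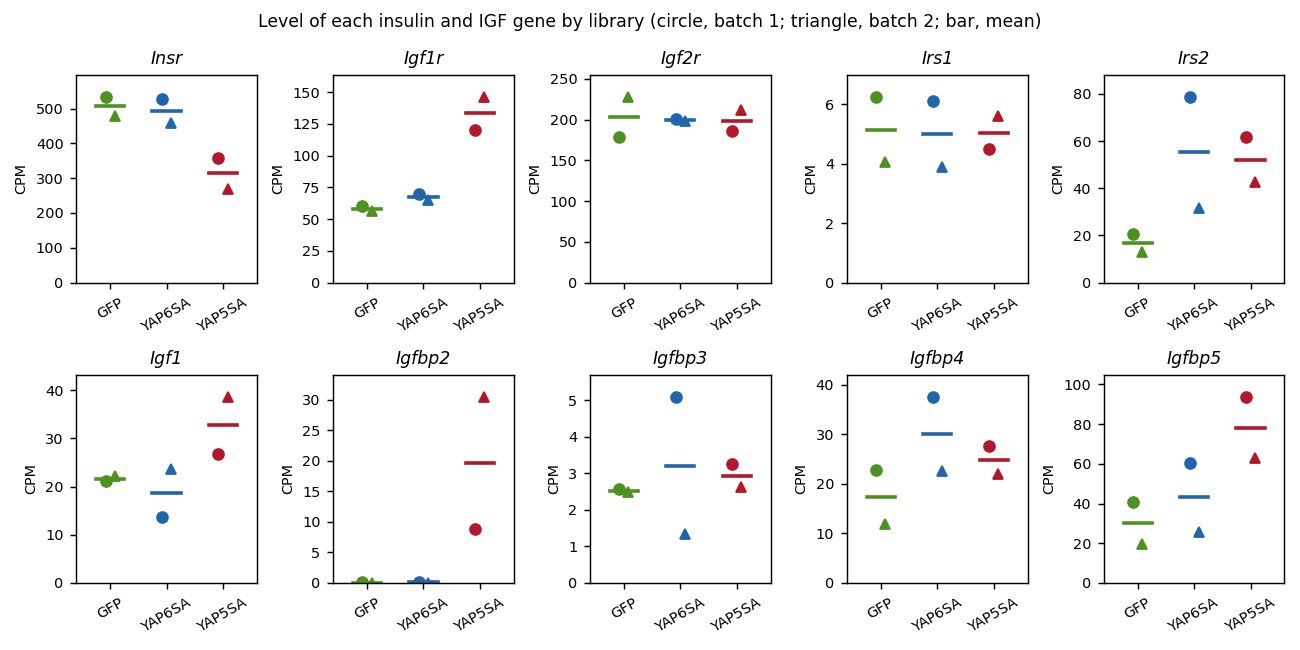
Level in CPM (y axis) of each of the 10 genes in the 3 groups (x axis), with 1 point per library, circles for batch 1, triangles for batch 2 and a bar at the mean of the 2. *Insr* is lower and *Igf1r* higher in both YAP5SA libraries than in the other 4, *Irs2* is higher in both variants than in GFP, and *Igfbp2* reaches 8.88 and 30.4 CPM in YAP5SA alone.

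Per kilobase of exon, which allows genes to be compared, *Insr* was the most abundant of the 10 in GFP at 36.8 ± 2.78 CPM per kb (mean ± SD, n = 2 libraries), followed by *Igf2r* at 21.8 ± 3.76. *Igfbp5* (5.01 ± 2.47), *Igfbp4* (3.92 ± 1.76), *Igf1r* (3.47 ± 0.184), *Irs2* (2.65 ± 0.840) and *Igf1* (2.19 ± 0.0799 CPM per kb) followed, and in this run no gene differed from the next beyond their spread. *Igfbp3* (0.808 ± 0.0214) and *Irs1* (0.564 ± 0.171) were lower, and *Igfbp2* was at 0.0285 ± 0.0403 CPM per kb. In YAP6SA the first 2 places were the same, and *Irs2* came next at 8.74 ± 5.25 CPM per kb, within the spread of *Igfbp5* (7.19 ± 4.09) and *Igfbp4* (6.79 ± 2.40). In YAP5SA *Insr* (22.8 ± 4.48) and *Igf2r* (21.3 ± 1.97 CPM per kb) did not differ beyond their spread. *Igfbp5* (13.0 ± 3.62), *Igfbp2* (10.6 ± 8.25), *Irs2* (8.25 ± 2.12) and *Igf1r* (7.94 ± 1.09) then formed a run of overlapping values.

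*Insr*, which encodes the insulin receptor (ENSMUSG00000005534, GRCm38 chr8:3122061-3279617, minus strand), was at 533.5 and 479 CPM in GFP, from 10148 and 7342 counts. It was at 526 and 458 CPM in YAP6SA, and at 357 and 270.0 CPM in YAP5SA, from 5392 and 4818 counts. Both YAP5SA libraries lay below the other 4, and GFP and YAP6SA overlapped. The log2 fold change was -0.70 (SE 0.16) for YAP5SA against GFP, a 1.63-fold lower level, with -0.58 and -0.83 in the batches. It was -0.66 (SE 0.16) for YAP5SA against YAP6SA and -0.04 (SE 0.16) for YAP6SA against GFP. The median over the 9 CM markers was -0.76, -0.68 and -0.08 in the same 3 comparisons. Whether *Insr* fell apart from these markers was not tested. The call against GFP was lost without either GFP library (log2 fold change -0.76 without that of batch 1 and -0.62 without that of batch 2). The call against YAP6SA was lost without either YAP6SA library (-0.70 and -0.62) and without the batch term (-0.65).

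*Igf1r*, the gene of the IGF1 receptor (ENSMUSG00000005533, chr7:67952827-68233668, plus strand), went the opposite way. It was at 60.5 and 56.1 CPM in GFP, 69.4 and 65.2 CPM in YAP6SA, and 120.3 and 146 CPM in YAP5SA, the last from 1816 and 2608 counts. The YAP5SA libraries were higher than all others, and both YAP6SA libraries lay slightly above both of GFP. YAP5SA exceeded GFP by 1.19 on the log2 scale (SE 0.16, 2.28-fold), with 0.99 and 1.38 in the batches, and this call held under all 14 alternatives. Against YAP6SA the difference was 0.98 (SE 0.16), a call lost without the YAP6SA library of batch 2 (0.90). For YAP6SA against GFP it was 0.21 (SE 0.16). *Igf2r* (ENSMUSG00000023830, chr17:12682406-12769664, minus strand), the clearance receptor of IGF2, was at 178.5 and 228 CPM in GFP, 201 and 198 CPM in YAP6SA, and 185.5 and 211.5 CPM in YAP5SA. The 3 groups overlapped, and the log2 fold changes were -0.01 and -0.03 for YAP6SA and YAP5SA against GFP and -0.01 between the variants (each SE 0.16). *Airn*, a noncoding RNA on the other strand of *Igf2r*, had 3872 counts over the 6 libraries beside 20678 of *Igf2r*. The libraries carry no strand information, so reads of the 2 genes in shared stretches cannot be told apart, although their exons do not overlap.

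Within a library, the ratio of *Insr* to *Igf1r* (counts per kb of exon) needs no scaling between libraries. It was 10.8 and 10.4 in GFP, 9.26 and 8.58 in YAP6SA, and 3.63 and 2.26 in YAP5SA. The means were 10.6 ± 0.239, 8.92 ± 0.481 and 2.94 ± 0.969 (SD, n = 2), and no group overlapped another. *Insr* RNA was therefore above *Igf1r* RNA in every library, by a smaller factor in YAP5SA.

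**Figure D2:**
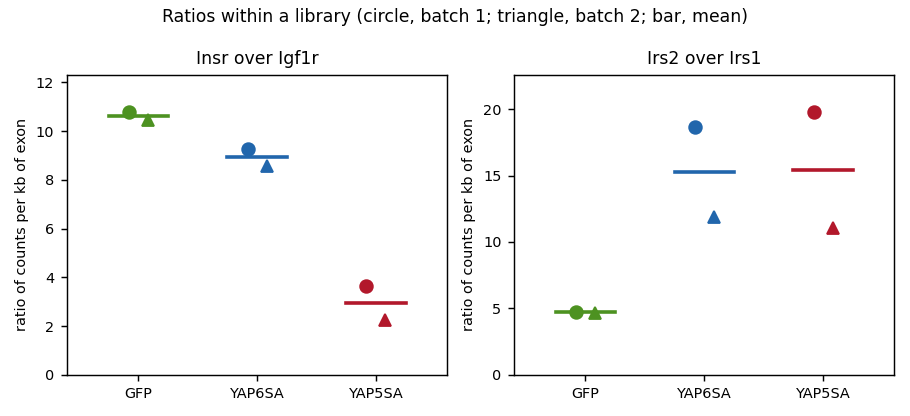
Ratio of counts per kb of exon within each library (y axis) for *Insr* over *Igf1r* (left) and *Irs2* over *Irs1* (right) in the 3 groups (x axis), with circles for batch 1, triangles for batch 2 and bars at the mean of the 2 libraries. The receptor ratio is 10.6 in GFP and 2.94 in YAP5SA, and the substrate ratio is 4.69 in GFP, 15.3 in YAP6SA and 15.4 in YAP5SA.

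*Irs2* (ENSMUSG00000038894, chr8:10984681-11008458, minus strand) encodes one of the docking proteins that link the activated receptors to PI3-kinase, and its transcription is known to rise when FOXO factors or CREB are active. Its promoter is shown because *Irs2* was the one gene of the 10 that was called in YAP6SA, the variant without TEAD binding. The window holds the 250 bases before the RefSeq start (GRCm38.p6 chr8:11008930-11009179, minus strand, written 5′ to 3′ on the gene's strand). That start lies upstream of the one in the gene coordinates above, and the bases between the 2 starts were not searched. The window was searched on both strands for the TEAD motif GGAATG, the FOXO motif GTAAACA and the CRE core TGACG. None of them was found in it, so no letter is in capitals.
Irs2: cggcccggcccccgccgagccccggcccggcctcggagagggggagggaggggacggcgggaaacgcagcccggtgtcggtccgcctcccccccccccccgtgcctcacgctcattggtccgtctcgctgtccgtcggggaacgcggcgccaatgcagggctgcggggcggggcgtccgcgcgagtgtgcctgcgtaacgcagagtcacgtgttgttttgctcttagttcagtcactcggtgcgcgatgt

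*Irs2* was at 20.5 and 13.0 CPM in GFP, from 390 and 199 counts. It was at 78.8 and 31.8 CPM in YAP6SA, from 1548 and 525 counts, and at 61.7 and 42.7 CPM in YAP5SA, from 931 and 762 counts. All 4 variant libraries lay above both GFP libraries, and the variants overlapped. The log2 fold change against GFP was 1.64 (SE 0.22, 3.12-fold) in YAP6SA, with 1.94 and 1.28 in the batches, and 1.66 (SE 0.22, 3.16-fold) in YAP5SA, with 1.58 and 1.71. YAP5SA and YAP6SA differed by 0.02 (SE 0.21), the YAP5SA library being lower in batch 1 (-0.35) and higher in batch 2 (0.42). The YAP5SA call held under all 14 alternatives. The YAP6SA call was lost without the GFP library of batch 1 (1.50), without the YAP6SA library of batch 1 (1.25) and without the batch term (1.72). *Irs2* shares exonic sequence with 9530052E02Rik on the other strand, which had 108 counts over the 6 libraries beside 4355 of *Irs2*.

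*Irs1* (ENSMUSG00000055980, chr1:82233101-82291416, minus strand), the other main substrate of these receptors, was at 6.26 and 4.05 CPM in GFP, 6.11 and 3.88 CPM in YAP6SA, and 4.50 and 5.61 CPM in YAP5SA. These rest on 62 to 120 counts per library, the groups overlapped, and the log2 fold changes were -0.05 and 0.02 for YAP6SA and YAP5SA against GFP and 0.07 between the variants (each SE 0.39). *Irs1* shares exonic sequence with the protein-coding gene Gm9747 on the other strand, which had 0 counts over all libraries. Reads ambiguous between genes were not counted, so the level of *Irs1* may be understated and the size of the ratio below affected. The ratio of *Irs2* to *Irs1* within a library was 4.74 and 4.64 in GFP, 18.7 and 11.9 in YAP6SA, and 19.8 and 11.0 in YAP5SA. Both variants lay above GFP in both batches, and the variants overlapped each other.

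The genes whose log2 CPM ran most like that of *Irs2* over the 6 libraries, among the 13019 tested genes with at least 10 counts in each, were *Lamtor1* (Pearson r 0.992), *Pgghg* (0.990), *Zyx* (0.989), *H2-D1* (0.988) and *Rab2a* (0.983). *Lamtor1* encodes an anchor of the Ragulator complex on lysosomes, *Pgghg* an enzyme that removes glucose from hydroxylysine, *Zyx* the focal adhesion protein zyxin, *H2-D1* an MHC class I chain and *Rab2a* a small GTPase of the early secretory route. Pearson r does not measure the size of a change. *Zyx* had 1802 and 1271 counts in GFP, 3942 and 2140 in YAP6SA, and 2457 and 2454 in YAP5SA. *Lamtor1*, the first in the order, had 560 and 408, 793 and 512, and 573 and 620 counts, so its groups differed less than those of *Irs2*. The points share library and batch, and with 6 of them and this many genes the order is a description only.

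*Igf1* (ENSMUSG00000020053, chr10:87858265-87937042, plus strand), the ligand of IGF1R, was at 21.1 and 22.2 CPM in GFP, 13.7 and 23.7 CPM in YAP6SA, and 26.8 and 38.6 CPM in YAP5SA. The counts behind these were 401 and 340, 269 and 391, and 405 and 688. Both YAP5SA libraries lay above the other 4, and GFP and YAP6SA overlapped. The log2 fold change was 0.83 (SE 0.22, 1.77-fold) for YAP5SA against YAP6SA, 0.56 (SE 0.22) for YAP5SA against GFP, which was not called, and -0.27 (SE 0.22) for YAP6SA against GFP. The call against YAP6SA was lost without the batch term (0.81) and without either YAP6SA library (0.60 and 1.09) or the YAP5SA library of batch 2 (0.79). *Igf1* is made by macrophages and fibroblasts of the heart as well. The summed macrophage markers were at 59.8 and 81.2 CPM in GFP, 70.8 and 99.0 CPM in YAP6SA, and 85.7 and 134 CPM in YAP5SA. Of 7 macrophage markers tested, *C1qa* and *Lyz2* were called higher in YAP5SA than in GFP, beside 12.8% of all genes. Between YAP5SA and YAP6SA 0 were called, beside 14.7% of all genes. The part of these cells in the *Igf1* values was not tested. Between batches, *Igf1* was higher in batch 2 by 0.46 and the macrophage markers by a median of 0.50 on the log2 scale. Neither *Igf1* (edgeR FDR 0.356) nor any macrophage marker was called for the batch difference.

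Of the 4 binding proteins, *Igfbp2* and *Igfbp5* are neighbours on chromosome 1, where they converge tail to tail with 5457 bases and no annotated gene between them. *Igfbp3* lies on chromosome 11 in the same arrangement with *Igfbp1*, which had 0 counts in every library, with 3539 bases between them. *Igfbp4* stands apart on that chromosome. The promoter windows of *Igfbp2* and *Igfbp5* are shown because both neighbours had higher levels in YAP5SA than in the other groups, and the variants differ in TEAD binding. They are the 250 bases before the RefSeq start, 5′ to 3′ on the gene's strand, chr1:72824230-72824479 (plus strand) for *Igfbp2*, the first of 2 windows listed, and chr1:72874866-72875115 (minus strand) for *Igfbp5*. Capitals mark a match to the TEAD motif GGAATG read on the opposite strand (CATTCC), 233 to 228 bases before the *Igfbp5* start.
Igfbp2: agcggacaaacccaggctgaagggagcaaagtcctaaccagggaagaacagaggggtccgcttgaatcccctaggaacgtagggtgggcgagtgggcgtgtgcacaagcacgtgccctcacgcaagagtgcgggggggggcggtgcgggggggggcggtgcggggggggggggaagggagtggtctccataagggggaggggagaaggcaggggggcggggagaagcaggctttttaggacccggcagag
Igfbp5: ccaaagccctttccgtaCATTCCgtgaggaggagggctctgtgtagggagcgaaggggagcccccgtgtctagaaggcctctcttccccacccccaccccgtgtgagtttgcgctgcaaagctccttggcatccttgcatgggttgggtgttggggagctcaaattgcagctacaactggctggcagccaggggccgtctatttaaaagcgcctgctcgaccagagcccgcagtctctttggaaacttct

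Of the 10 genes, 9 were in the RefSeq promoter table, with 10 windows. For some genes the RefSeq start differs from the start in the gene coordinates given here. The TEAD motif GGAATG, on either strand, was in the windows of *Igfbp5* and *Irs1*, and 12.6% of all 32851 mouse windows of this length hold it. The FOXO motif GTAAACA was in none of them and in 3.17% of all windows, and the CRE core TGACG was in those of *Igf2r* and *Irs1* and in 17.8% of all. The marked match overlaps no other of these motifs, and a match is a run of letters, not evidence of binding.

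*Igfbp2* (ENSMUSG00000039323, chr1:72824503-72852474, plus strand), a binding protein that is abundant in fetal tissues, had 2 and 0 counts in GFP and 4 and 0 counts in YAP6SA. In YAP5SA it had 134 and 543 counts, which is 8.88 and 30.4 CPM. It thus passed the filter through YAP5SA only, and its level in the other groups was at about the limit of detection. The summed counts, scaled for library size, were 353 times higher in YAP5SA than in GFP (95% exact counting interval 97.3 to 2920) and 186 times higher than in YAP6SA (72.2 to 684). These intervals cover counting error only, and the 2 YAP5SA libraries differed from each other by more than that.

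*Igfbp5* (ENSMUSG00000026185, chr1:72857932-72874884, minus strand), a binding protein that adheres to the extracellular matrix, was at 40.6 and 19.6 CPM in GFP, from 772 and 300 counts. It was at 60.6 and 25.8 CPM in YAP6SA, from 1191 and 426 counts, and at 93.6 and 62.9 CPM in YAP5SA, from 1413 and 1122. Both YAP5SA libraries were higher than the other 4, and within each group the batch 1 library was the higher one. The log2 fold change was 1.45 (SE 0.19, 2.73-fold) for YAP5SA against GFP, with 1.20 and 1.68 in the batches, 0.95 (SE 0.19) for YAP5SA against YAP6SA, and 0.50 (SE 0.19) for YAP6SA against GFP. The call against GFP was lost without the batch term (1.37). That against YAP6SA was lost without the batch term (0.85) and without the YAP6SA library of batch 2 (0.75).

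*Igfbp4* (ENSMUSG00000017493, chr11:99041244-99054392, plus strand), which restrains IGF action until a protease cuts it, was at 22.8 and 11.8 CPM in GFP, 37.5 and 22.5 CPM in YAP6SA, and 27.7 and 22.0 CPM in YAP5SA. The groups overlapped, although in each batch both variants lay above GFP. The log2 fold changes against GFP were 0.81 (SE 0.22, 1.75-fold) in YAP6SA and 0.58 (SE 0.22) in YAP5SA, and neither was called. The first was called in a fit of only the 4 libraries compared (0.82) and without either YAP5SA library (0.82 and 0.81), and the second without the YAP5SA library of batch 1 (0.84). YAP5SA and YAP6SA differed by -0.23 (SE 0.21). *Igfbp3* (ENSMUSG00000020427, chr11:7206086-7213923, minus strand), the main carrier of IGF1 in blood, was at 2.58 and 2.48 CPM in GFP, 5.09 and 1.33 CPM in YAP6SA, and 3.25 and 2.63 CPM in YAP5SA, from 22 to 100 counts. The YAP6SA libraries were the highest and the lowest of the 6. Its log2 fold changes were 0.19 (SE 0.54) and 0.21 (SE 0.53) for YAP6SA and YAP5SA against GFP and 0.02 (SE 0.52) between the variants, and YAP6SA against GFP had opposite signs in the batches (0.95 and -0.84).

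The binding proteins and *Irs2* are expressed by fibroblasts, endothelial or mural cells too, and several had the same sign as the markers of those cells between batches. The log2 difference of batch 2 from batch 1 was 1.15 for *Igfbp2*, and -0.74 for *Igfbp3*, -0.67 for *Igfbp4*, -0.95 for *Igfbp5* and -0.84 for *Irs2*. None of these batch differences was called (edgeR FDR 0.0527 to 0.550), nor was that of any marker. All 8 fibroblast and all 8 endothelial markers were lower in batch 2 as well, with median log2 differences of -0.69 and -0.46, and so were 5 of 6 mural markers, with a median of -0.22. Between groups, the summed fibroblast markers were at 1076 and 730.5 CPM in GFP, 1440 and 800 CPM in YAP6SA, and 1167 and 739 CPM in YAP5SA, with 0 of 8 called in any comparison. The endothelial sums were 633 and 488 CPM, 744 and 498.5 CPM, and 651 and 495 CPM in the same order, with 0 of 8 called. The mural sums were 228 and 183 CPM, 258 and 216 CPM, and 214.5 and 182 CPM, with 0 of 6 called. Of all genes, 22.0% were called in YAP5SA against GFP, 14.7% in YAP5SA against YAP6SA and 0.0450% in YAP6SA against GFP. For YAP5SA against GFP the median log2 fold change was 0.12 over the fibroblast, 0.08 over the endothelial and -0.17 over the mural markers, beside 1.45 for *Igfbp5* and 1.66 for *Irs2*. For YAP6SA against GFP it was 0.32, 0.12 and 0.27, beside 1.64 for *Irs2* and 0.81 for *Igfbp4*. The mural marker *Rgs5*, not called, had log2 fold changes of 0.85 in YAP6SA and 0.70 in YAP5SA against GFP, beside 0.81 and 0.58 for *Igfbp4*. It was the highest of the mural markers in both. The others lay at 0.07 to 0.35 in YAP6SA and were all negative in YAP5SA, from -0.37 to -0.04. The part of these cells in the values was not tested.

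**Figure D3:**
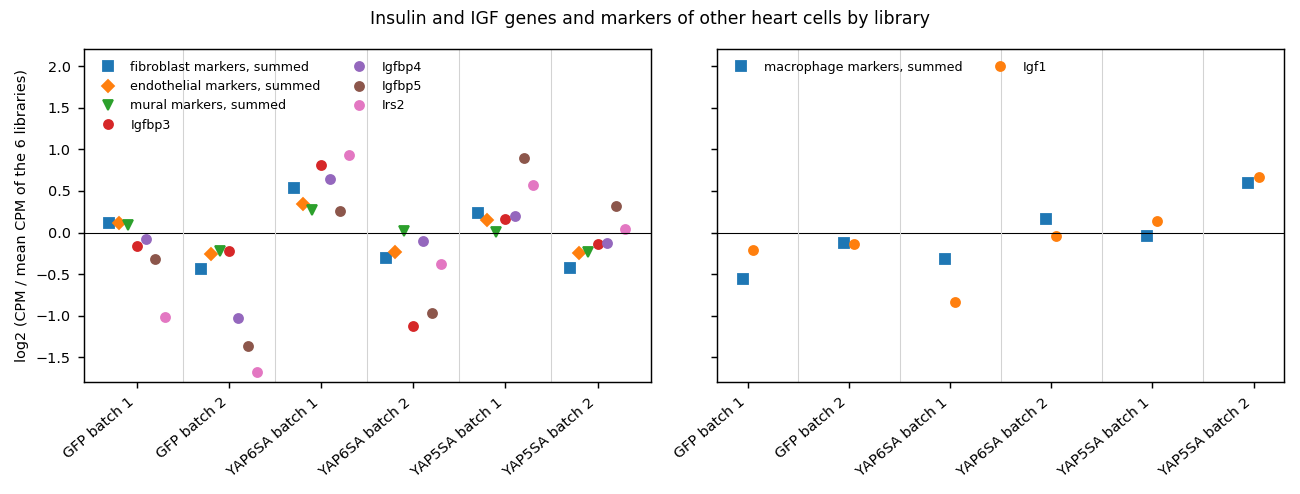
Level in each library relative to the mean of the 6 libraries (y axis, log2), with libraries along the x axis, for the summed markers of fibroblasts, endothelial and mural cells beside *Igfbp3*, *Igfbp4*, *Igfbp5* and *Irs2* (left), and the summed macrophage markers beside *Igf1* (right). In each group the stromal markers and the 4 genes on the left are lower in batch 2, with a median log2 difference of -0.69 over the fibroblast markers, and the macrophage markers on the right are higher.

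**Figure D4:**
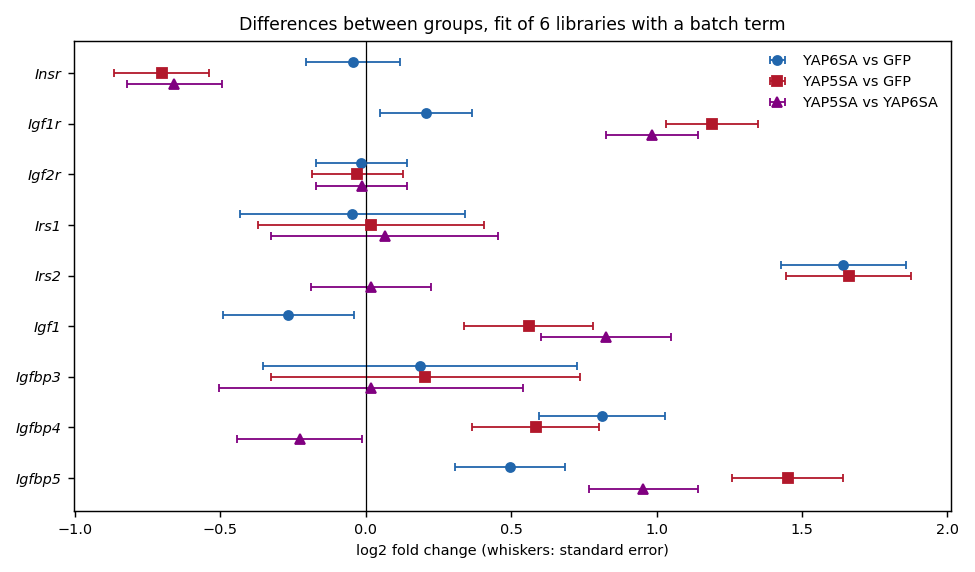
Log2 fold change (x axis) of 9 of the 10 genes (y axis) in the 3 comparisons, with whiskers of 1 standard error from the fit of 6 libraries with a batch term. *Igfbp2* is left out because its counts in GFP and YAP6SA were at most 4. *Igf2r*, *Irs1* and *Igfbp3* lie near 0 in every comparison, and *Irs2* lies at 1.64 and 1.66 against GFP and at 0.02 between the variants.

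The other genes of the pathway were taken from a list of 78 ligands, proteases, adaptors, regulators and kinases, of which 69 were tested. In YAP5SA against GFP, 10 were higher and 3 lower, or 18.8% beside 22.0% of all genes, and the list's median was -0.01 (log2). In YAP5SA against YAP6SA, 6 were higher and 2 lower, or 11.6% beside 14.7%, with a median of 0.13. In YAP6SA against GFP 0 were called by edgeR, DESeq2 or limma-voom, 4 of 69 had an unadjusted p under 0.05 beside 790 of 13323 genes, and the median was -0.0009. One gene, *Igfbp7*, was called there by the likelihood ratio test, without the filter, in the fit of only the 4 libraries compared and without either YAP5SA library. In both YAP5SA comparisons the number of pathway genes called changed with the library left out, and so did the number over all genes. Both were lowest without the batch 2 library of the group compared with YAP5SA, and highest without the YAP5SA library of batch 1. The ranges are given at the end, and the changes are not read as a trait of the pathway.

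Of the other ligands, *Igf2* had 2 and 0 counts in GFP, 0 and 0 in YAP6SA and 5 and 0 in YAP5SA, and was not tested. *Igf2* shares exonic sequence with the protein-coding gene Gm49394 on the same strand, which had 0 counts over all libraries. It also shares some with *Igf2os* on the other strand, which had 90. Reads ambiguous between genes were left out of the counts, so the level of *Igf2* may be understated. *Ins1* and *Ins2* had at most 2 counts in a library. *Igf1* was thus the one ligand that passed the filter. Of the 5 other binding proteins and proteases tested, *Igfbp7*, which binds IGFs weakly, and *Htra1*, a secreted serine protease that cuts binding proteins, rose in YAP5SA against GFP. *Igfbp7* had a log2 fold change of 1.17 (SE 0.23, edgeR FDR 0.00779), and 0.99 in YAP6SA (edgeR FDR 0.335). *Htra1* had 1832 and 1675 counts in GFP, 1941 and 2212 in YAP6SA, and 3116 and 3806 in YAP5SA. It rose by 1.03 (SE 0.16, edgeR FDR 0.00215) against GFP and by 0.87 (SE 0.16, edgeR FDR 0.00657) against YAP6SA.

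The PI3-kinase genes *Pik3r1* and *Pik3cb* rose in YAP5SA against both other groups. *Pik3r1*, the regulatory subunit that docks on the IRS proteins, had 643 and 449 counts in GFP, 608 and 528 in YAP6SA, and 892 and 1472 in YAP5SA. It rose by 1.15 (SE 0.19, edgeR FDR 0.00358) against GFP and by 1.16 (SE 0.19, edgeR FDR 0.00438) against YAP6SA. *Pik3cb*, a catalytic subunit, rose by 1.43 (SE 0.34, edgeR FDR 0.0158) and 1.31 (SE 0.33, edgeR FDR 0.0279). Among 12 negative regulators, *Socs3*, a cytokine-induced inhibitor that can target IRS proteins, was the one gene called. That is 8.33%, beside 22.0% of all genes called against GFP and 14.7% against YAP6SA. *Socs3* rose by 1.90 (SE 0.46, edgeR FDR 0.0172) against GFP and by 1.81 (SE 0.47, edgeR FDR 0.0299) against YAP6SA, and in YAP5SA it had 207 counts in batch 1 and 553 in batch 2.

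The other negative regulators named here did not pass the test in YAP5SA against GFP. *Grb10*, an imprinted adaptor that inhibits both receptors, had a log2 fold change of -0.32 (edgeR FDR 0.279), and its relative *Grb14* one of -0.68 (edgeR FDR 0.0949). None of the 6 FOXO and GSK3 genes was called, beside 22.0% of all genes, with *Foxo1* at 0.27 (edgeR FDR 0.438) and *Foxo3* at -0.28 (edgeR FDR 0.384). Of 14 genes of the mTOR complexes, 7.14% were called, beside 22.0% of all genes. The one called was *Deptor*, an inhibitory subunit, and it rose by 1.23 (SE 0.36, edgeR FDR 0.0369). That call was kept in 7 of 14 alternatives and was lost with any library left out.

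Of 5 genes of glucose uptake and glycogen synthesis, 2 rose and 2 fell in YAP5SA against GFP, or 80.0% beside 22.0% of all genes. The list was chosen with earlier results known, so this share is a description only. *Slc2a1*, the glucose transporter GLUT1 that dominates in the fetal heart, had 160 and 67 counts in GFP, 133 and 88 in YAP6SA, and 282 and 910 in YAP5SA. It rose by 2.39 (SE 0.48, edgeR FDR 0.00790) against GFP, with 1.14 and 3.51 in the batches, and by 2.49 (SE 0.48, edgeR FDR 0.00887) against YAP6SA. *Slc2a4*, the insulin-responsive transporter GLUT4, was at -0.27 (edgeR FDR 0.248) against GFP, with 321 ± 44.7 CPM in GFP and 267 ± 48.5 CPM in YAP5SA. *Gys1*, the muscle glycogen synthase, fell from 155 ± 26.0 to 73.5 ± 9.66 CPM, with a log2 fold change of -1.07 (SE 0.16, edgeR FDR 0.00187) against GFP and -0.77 (SE 0.16, edgeR FDR 0.0115) against YAP6SA. Further calls are named here after their values were seen. In YAP5SA against GFP, *Tbc1d4*, an AKT substrate that retains GLUT4 vesicles (-0.83, edgeR FDR 0.0494), and the adaptor *Grb2* (-0.61, edgeR FDR 0.0220) fell, and *Tbc1d1* (0.57, edgeR FDR 0.0357) and the kinase *Braf* (0.77, edgeR FDR 0.0189) rose. Of 14 alternatives, *Tbc1d4* kept its call in 8, *Tbc1d1* in 6, and *Braf* and *Grb2* in 11, and all 4 lost it without the GFP library of batch 2 and without the YAP5SA library of batch 2. In YAP5SA against YAP6SA, the adaptor *Gab1* rose (0.73, edgeR FDR 0.0102) and *Grb2* fell (-0.61, edgeR FDR 0.0295). These calls were kept in 12 and 8 of 14 alternatives.

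**Figure D5:**
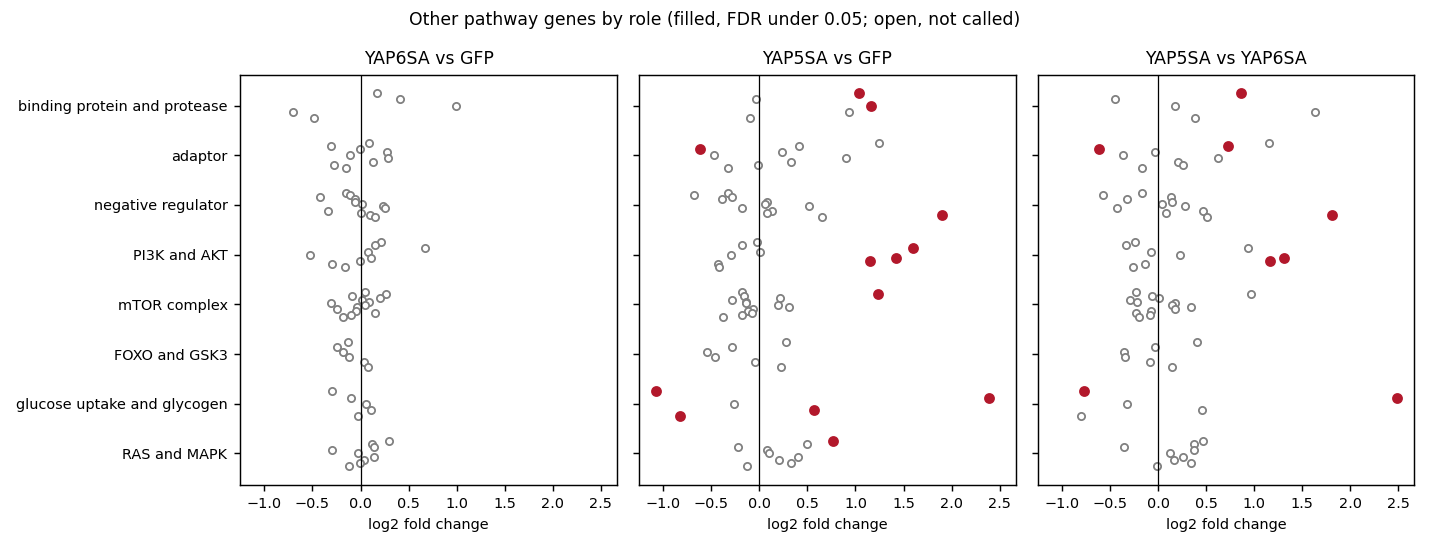
Log2 fold change (x axis) of 69 other insulin and IGF pathway genes, 1 point each, grouped by role (y axis), in the 3 comparisons, with filled points for genes called at an FDR under 0.05 and open points for the rest. No point is filled for YAP6SA against GFP, 13 are for YAP5SA against GFP, and 8 are for YAP5SA against YAP6SA, with *Slc2a1* the farthest to the right at 2.39 and 2.49.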

How the data were processed

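Per the labels, poly-A enriched, non-directional libraries were made from nuclei that PCM-1 antibodies had bound, for 3 groups in 2 batches. The authors mapped reads with STAR (version not given in the sources used here) to mm10 and deposited raw read counts per gene, without normalization or filter. All 6 columns were used. Gene names, coordinates and exon lengths came from GENCODE M21 (GRCm38), which named 54495 of 54532 genes, and 27396 had a count above 0. Reads outside genes (9.43% to 9.84% of reads), ambiguous between genes (5.79% to 6.31%), mapping to several places (2.90% to 4.19%) or unmapped (3.03% to 3.63%) stayed out of all totals.

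Genes were kept where the log2 CPM had a median over 1 in any group (13323). Counts were fitted with edgeR 4.0.16 in R 4.3.3 (TMM scaling, quasi-likelihood test, Benjamini-Hochberg adjustment over all genes kept, threshold 0.05) in 1 model of the 6 libraries with terms for group and batch. Standard errors are the log2 fold change divided by the root of the F statistic, and values within a batch compare 1 library with 1 library. The batch term pairs the libraries. The pairing comes from the labels, where replicate number and batch number are the same, and deviations from the group means correlated across genes (GFP with YAP6SA 0.368, with YAP5SA 0.0985, and YAP6SA with YAP5SA 0.175). Replicates were not copies: the chi-square between the libraries of a group was 25.3 to 39.6 per degree of freedom. As nothing states that libraries are separate animals, p-values measure the spread between these libraries, which may be technical in part.

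The 10 genes, the pathway list and the marker lists were chosen with earlier results of these data known. The genes named are the 10, 8 pathway genes set by name (*Igf2*, *Grb10*, *Grb14*, *Pik3r1*, *Foxo1*, *Foxo3* and *Slc2a4* among them), and in each comparison the 6 pathway genes with the largest log2 fold change among those called and of 1 sign in both batches. Some of these are not reported here. Promoters came from RefSeq (GRCm38.p6). Alternatives were the likelihood ratio test of edgeR, limma-voom (limma 3.58.1), DESeq2 1.42.0 and its RLE scaling alone, a minimum of 10 counts in each library or no minimum, no batch term, only the 4 libraries compared, and each library left out. On simulated data for YAP5SA against GFP with 12953 genes, the fit recovered 100 of 100 genes changed 4-fold and 83 of 100 changed 2-fold, with 2 false calls. The simulation gave every gene the same dispersion, gave all groups the same batch effect and changed no gene of low count. The real libraries vary in other ways, so these shares check the code and do not give the power on these data.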

Additional observations from a re-analysis of the deposited data

How the results depend on the processing

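Of 416 log2 fold changes of the 10 genes under the alternatives, 34 had the opposite sign to the reported one, all of genes not called in that comparison. Of the 416, 377 stayed within the spread of the batches (SD of the 2 batch differences) and 39 moved by more. Leaving out 1 library tends to move a value by less than that SD, so the 377 do not measure stability. *Igf1r* and *Irs2* in YAP5SA against GFP kept their call in all alternatives. With at least 10 counts in each library *Igfbp2* had no value. Leaving out a library leaves 1 residual degree of freedom, with the lone library assumed to vary like the other groups. With no replicate block, 0 genes and 0 of the 10 were called for YAP6SA against GFP (6 and 1 with batch as the block), and 1152 genes and 2 of the 10 for YAP5SA against YAP6SA (1956 and 5 with it). The counts for YAP6SA against GFP became 145 genes and 1 pathway gene with no filter, 82 and 1 with the likelihood ratio test, 54 genes with DESeq2, and 236 genes, 2 of the 10 and 1 pathway gene in the fit of only 4 libraries. Without the filter, 13 pathway genes were called for YAP5SA against YAP6SA in place of 8. With 1 library left out, YAP6SA against GFP gave 6 to 216 genes (most without the YAP5SA library of batch 2), 0 to 2 of the 10 and 0 to 1 pathway genes. YAP5SA against GFP gave 788 genes (without GFP of batch 2) to 4799 (without YAP5SA of batch 1), 4 to 6 of the 10 and 2 to 28 pathway genes. YAP5SA against YAP6SA gave 410 genes (without YAP6SA of batch 2) to 4098 (without YAP5SA of batch 1), 1 to 5 of the 10 and 1 to 24 pathway genes. Depth limits the level of *Igfbp2* outside YAP5SA, with at most 4 counts in a library. The cause of these changes was not tested.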
